A study of Mus musculus with 24 samples.

Results

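The cytochrome P450 genes outside family 1 were taken as every gene whose single annotated symbol is Cyp, a family number of 2 or more, a subfamily letter and a gene number, with 1 probe set per gene, the one of highest mean over the 24 arrays. This rule found 58 of the 12393 genes measured, and all 58 had an Entrez identifier that matched the RefSeq gene table. 14 of the 58 had a mean of at least 6 on the log2 intensity scale and are called expressed members here, while the other 44 are called dim. The RNA came from frozen lungs. The mice were females of the inbred strain BALB/C, aged 8 to 10 weeks. Each of 8 groups has 3 arrays that the labels call biological replicates, so that n = 3 for every group value; whether an array holds RNA of 1 mouse or of several is not given in the labels. All mice were dosed through the nose on days 0 and 13, and lungs were taken 18 hours after the second dose.

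The control mice received saline. The OVA mice received 20 ug ovalbumin, a protein of egg white that serves as an experimental allergen, with saline in place of particles. The NDEP, ADEP and CDEP mice received 150 ug of 1 of 3 diesel exhaust particle samples that the series title describes as chemically distinct; the letters are not explained in the labels. The groups NDEP+OVA, ADEP+OVA and CDEP+OVA received both the 150 ug of particles and the 20 ug of ovalbumin. The labels mark the groups given ovalbumin as sensitized and the others as not. The samples are whole lung, a mixture of cell types, and in such bulk RNA fewer cells of a type and less RNA per cell cannot be told apart.

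Cytochrome P450 enzymes are heme proteins that use molecular oxygen and electrons passed on from NADPH to oxidise their substrates. Families 2 and 3 act mainly on drugs and other foreign compounds, family 4 on fatty acids and the lipid mediators made from arachidonic acid, and families such as 7, 27 and 39 on cholesterol derivatives. In the lung, club cells of the small airways hold much of this activity, and their P450 enzymes turn inhaled compounds such as naphthalene into reactive products.

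Values below are log2 intensities, a difference is the first group minus the second on that scale, and errors after ± are the SD for a group mean and the SE for a difference. A gene is said to rise or fall where limma's moderated test gave an adjusted p below 0.05, with Benjamini-Hochberg adjustment over all 12393 genes of that comparison. Whether the arrays of 2 groups overlap is given as a description and adds no test. The share of all genes without overlap was not counted. Array medians were 72.2 to 75.5 intensity units. Means over marker lists per array were 11.72 to 12.55 for alveolar type 2 cells, 10.57 to 11.52 for club cells and 4.59 to 5.34 for liver. Heart genes were also measured, from 5.43 to 7.10 for Ryr2 and from 9.02 to 11.43 for Myl7. These levels come from different probe sets and only describe the samples. The number of arrays limits the precision, and a level of 1 probe set cannot be compared with that of another, so levels are compared between groups only within a gene.

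By role, 32 of the 58 members belong to the families for drugs and foreign compounds, and 5 of these were expressed. 13 belong to the fatty acid and eicosanoid group, with 5 expressed, and 8 to the sterol, bile acid and vitamin D group, with 3 expressed. Of the 4 members that make steroid hormones, Cyp21a1 was the 1 expressed, and the single retinoic acid member, Cyp26a1, was dim. Cyp21a1 passed the level of 6 on the probe set used here (mean 6.43), while its second probe set had a mean of 4.76. Over the 21 comparisons, 7 of the 14 expressed members passed the test at least once and 7 never did. The share of all genes that passed at least once was not counted. The comparison of all 6 particle groups with the saline and OVA groups alone called 10.4% of all genes. Of the genes with a mean of at least 6 it called 14.4%. Among the 44 dim members, Cyp4f18 and Cyp2j9 passed at least once. Cyp2a12 (mean 5.83) lay just outside the level of 6, and Cyp4f13 (6.15) and Cyp4f16 (6.21) just inside it.

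The expressed drug-metabolising members were described first by their means over the 24 arrays and their lowest and highest group means. Cyp2f2, the club cell enzyme known for activating naphthalene, had a mean of 13.11, with its lowest group mean in NDEP+OVA (12.90) and its highest in OVA (13.38). Cyp2b10, a classical target of the xenobiotic receptor CAR in liver, had a mean of 10.47 and ranged from 10.26 in ADEP to 10.64 in OVA. Cyp2s1, an enzyme found in epithelia outside the liver, had a mean of 9.77 and ranged from 9.53 in ADEP+OVA to 9.98 in ADEP. Cyp2d22, of the drug-metabolising 2D subfamily, had a mean of 7.16 and ranged from 6.89 in ADEP to 7.58 in saline. Cyp2e1, the ethanol- and solvent-oxidising enzyme, had a mean of 6.43 and ranged from 5.91 in CDEP+OVA to 7.28 in saline, which was the widest range of the 14 at 1.37.

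In the fatty acid and eicosanoid group, Cyp4b1, a lung enzyme of fatty acids and of plant toxins, had a mean of 11.73 and ranged from 11.54 in ADEP to 12.03 in saline. Cyp4v3 had a mean of 8.11 (8.02 in ADEP+OVA to 8.34 in NDEP) and Cyp4f15 one of 6.95 (6.87 in CDEP to 7.13 in saline). Cyp4f16 had a mean of 6.21 (6.04 in OVA to 6.50 in NDEP+OVA) and Cyp4f13 one of 6.15 (5.97 in CDEP+OVA to 6.28 in NDEP). Among sterol enzymes, Cyp27a1, the mitochondrial sterol hydroxylase of bile acid synthesis, had a mean of 7.25 and ranged from 7.02 in ADEP to 7.54 in saline. Cyp7b1, which hydroxylates oxysterols, had a mean of 6.78 and ranged from 6.05 in OVA to 7.10 in NDEP. Cyp39a1, another oxysterol hydroxylase, had a mean of 6.63 and ranged from 6.32 in ADEP+OVA to 6.80 in ADEP. Cyp21a1, the steroid hydroxylase of the adrenal, had a mean of 6.43 and ranged from 6.24 in CDEP+OVA to 6.50 in ADEP+OVA. The range of group means had a median of 0.47 over the 14 genes and the SD within groups a median of 0.18.

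**Figure D1:**
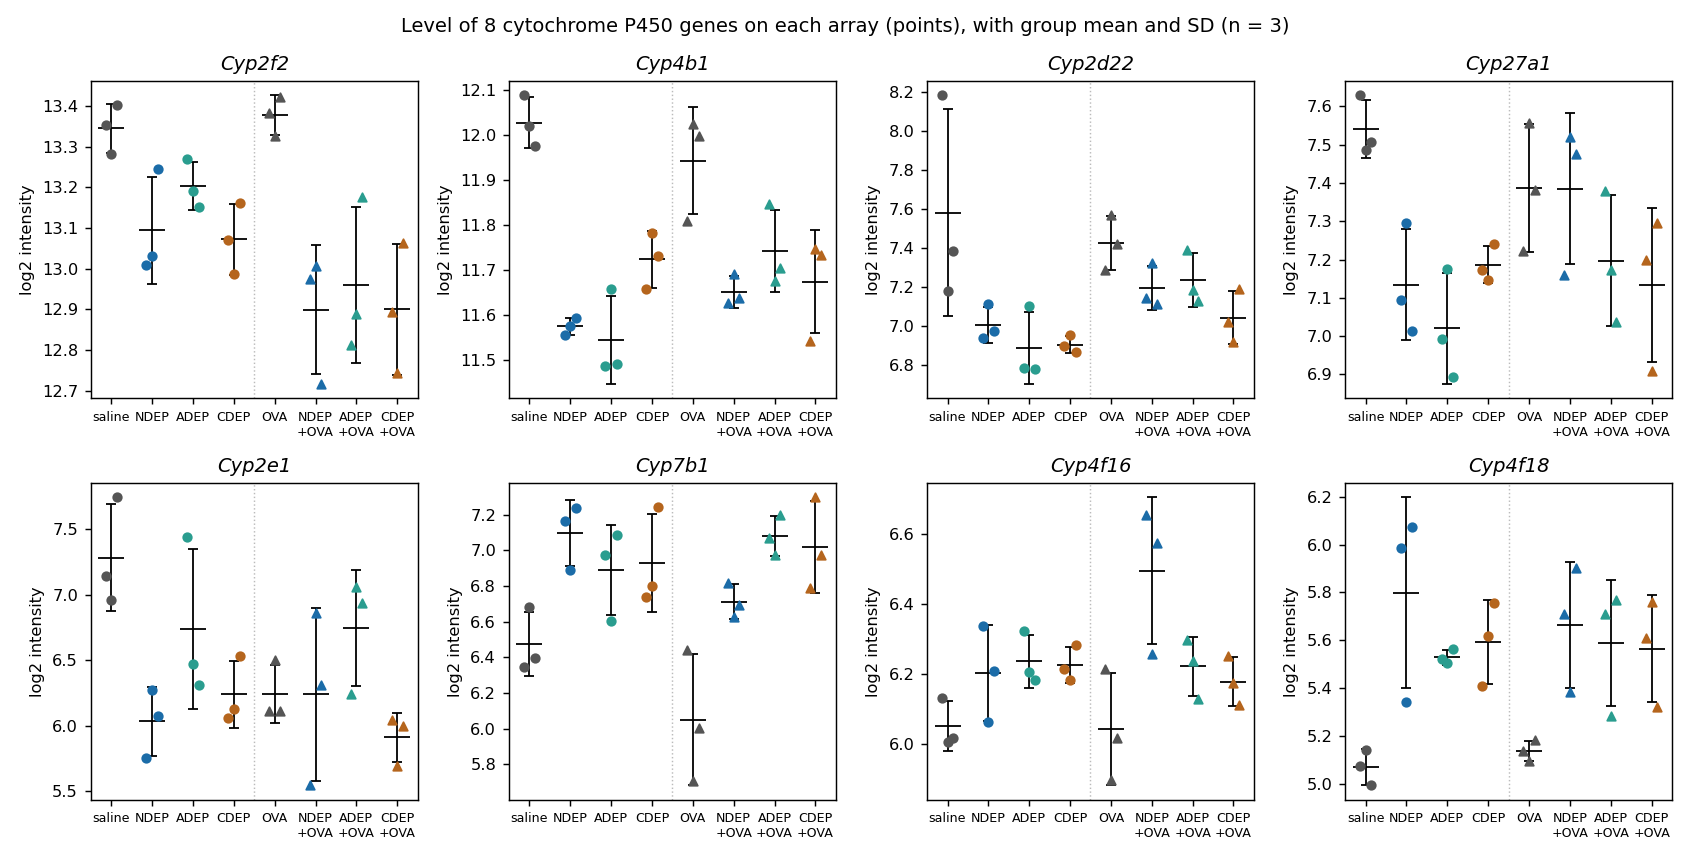
Log2 intensity (y axis, a separate scale in each panel) of 8 P450 genes on each of the 24 arrays, by group (x axis), with circles for arrays without ovalbumin, triangles for arrays with it, and bars for the group mean and SD (n = 3). Cyp2f2 and Cyp4b1 are highest in the saline and OVA groups, where Cyp7b1 and Cyp4f18 are lowest, and for Cyp2f2 and Cyp4f18 no particle array overlaps the 6 arrays without particles.

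Averaged over all 6 particle groups, 6 of the 14 expressed members changed against the mean of the saline and OVA groups, 4 lower and 2 higher, when 10.4% of all genes were called (7.01% higher and 3.44% lower). Their share was 42.9%, against 14.4% of all genes with a mean of at least 6, and the share over all 58 members was 12.1%. The median difference over the 14 was -0.06, against -0.00 over all genes. The enzymes that fell were Cyp2f2, Cyp4b1, Cyp2d22 and Cyp27a1, and those that rose were Cyp7b1 and Cyp4f16. Among dim members Cyp4f18 rose. In the single comparisons below, 3.71%, 2.4% and 5.7% of genes with a mean of at least 6 were called for NDEP, ADEP and CDEP against saline. For the same particles with ovalbumin against OVA these shares were 2.85%, 0.902% and 6.17%.

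Cyp2f2 lay between 12.72 and 13.27 on the 18 particle arrays, with a median of 13.02. On the 6 arrays without particles it lay between 13.28 and 13.42, with a median of 13.37. Every particle array was thus below every other array, although the difference was small, -0.34 ± 0.06 or 1.27-fold lower intensity (adjusted p = 0.000582, limma). Cyp4b1 lay between 11.48 and 11.85 with particles (median 11.66) and between 11.81 and 12.09 without (median 12.01). The sets met only at the edge, where ADEP+OVA replicate 1 exceeded OVA replicate 1, and the difference was -0.33 ± 0.05 (adjusted p = 6.61e-05, limma).

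Cyp2d22 ran from 6.78 to 7.39 with particles (median 7.06) and from 7.18 to 8.18 without (median 7.40), a difference of -0.46 ± 0.09 (adjusted p = 0.00193, limma). Saline replicate 1 held the high value of 8.18, and without it the difference was -0.31 (adjusted p = 0.00566, limma). The second Cyp2d22 probe set, with a mean of 6.11, fell by 0.35 ± 0.09 (adjusted p = 0.0126, limma over all probe sets). Cyp27a1 ran from 6.89 to 7.52 with particles (median 7.17) and from 7.22 to 7.63 without (median 7.50), a difference of -0.29 ± 0.07 (adjusted p = 0.00843, limma). Its arrays overlapped between the sets, with the particle arrays lower on average.

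Cyp7b1 ran from 6.6 to 7.30 with particles (median 6.97) and from 5.71 to 6.68 without (median 6.37). Saline replicate 2, at 6.68, was the only array without particles that reached the particle range, and the difference was 0.69 ± 0.10, or 1.62-fold (adjusted p = 3.44e-05, limma). The second Cyp7b1 probe set, with a mean of 4.99, rose by 0.91 ± 0.13 (adjusted p = 6.93e-05, limma over all probe sets). Cyp4f16 ran from 6.06 to 6.66 with particles (median 6.23) and from 5.90 to 6.21 without (median 6.02), a difference of 0.21 ± 0.06 (adjusted p = 0.0217, limma). Its second probe set, with a mean of 5.67, gave 0.06 ± 0.09 (adjusted p = 0.753, limma), so the 2 probe sets of Cyp4f16 did not give the same call, and with the mean over both the adjusted p was 0.15.

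Cyp4f18, a dim member that inactivates the neutrophil attractant leukotriene B4 in mouse neutrophils, ran from 5.28 to 6.07 with particles (median 5.61) and from 4.99 to 5.18 without (median 5.11). No particle array overlapped the others, and the difference was 0.52 ± 0.09, or 1.43-fold (adjusted p = 0.000538, limma). The neutrophil marker list moved the same way, with 5 of 5 measured genes higher, beside 7.01% of all genes, and a median of 0.81. The mean over that list was 6.50 to 7.03 on saline arrays and 7.99 to 8.17 on NDEP arrays, and its part in the Cyp4f18 difference was not tested. Of the leukotriene B4 genes added to the lists after Cyp4f18 was seen to rise, 0 of the 4 measured passed the test, and Alox5ap, the activator of leukotriene synthesis, stood at 0.21 ± 0.09.

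Cyp2e1, with -0.44 ± 0.16 (adjusted p = 0.0887, limma), did not pass, and its 95% interval ran from -0.78 to -0.10. Cyp4f15 followed with -0.15 ± 0.07 (adjusted p = 0.207). The remaining 6 expressed members (Cyp2b10, Cyp2s1, Cyp4v3, Cyp39a1, Cyp21a1 and Cyp4f13) lay between -0.07 and 0.03. The interval for Cyp2b10 was -0.19 to 0.19, and its other 2 probe sets gave -0.20 and -0.10, neither of which passed. With a fit that took the fat and heart marker scores as covariates, Cyp2f2 (adjusted p = 0.0687) and Cyp4f16 (adjusted p = 0.277) lost their calls in this average. Cyp4f16 also lost its call without any 1 of saline replicates 2 and 3 and OVA replicates 2 and 3, whereas the calls of Cyp2f2, Cyp4b1, Cyp2d22, Cyp27a1, Cyp7b1 and Cyp4f18 held with any 1 of the 24 arrays left out.

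Promoter sequences of RefSeq (build GRCm38.p6) were read for the 16 members that were expressed or called, and 12 of the 16 had an entry. Cyp7b1, Cyp2d22, Cyp39a1 and Cyp21a1 had none. The 250 bases before the start are shown 5′ to 3′ for 4 genes the results turn on: Cyp2f2 and Cyp4b1, which fell with particles, Cyp4f18, which rose, and Cyp2e1, which had the widest range over the groups. Capitals mark matches, on either strand, to 6 motifs that were searched: GCGTG (the core bound by the aryl hydrocarbon receptor with ARNT), TTGCNNAA (C/EBP factors), the NF-kB motif, CAAGTG (NKX2-1, a factor of lung epithelium), TGTTTNC (forkhead factors) and TATAAA (the TATA box). Cyp2f2 is at chr7:27119705-27119954 on the plus strand, Cyp4b1 at chr4:115647722-115647971 on the minus strand, Cyp4f18 at chr8:72009627-72009876 on the minus strand and Cyp2e1 at chr7:140763569-140763818 on the plus strand.
Cyp2f2: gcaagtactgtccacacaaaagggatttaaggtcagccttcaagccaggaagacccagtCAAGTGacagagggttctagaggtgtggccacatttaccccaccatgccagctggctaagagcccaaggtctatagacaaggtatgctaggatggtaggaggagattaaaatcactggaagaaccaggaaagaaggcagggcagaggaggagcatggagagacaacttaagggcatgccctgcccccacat
Cyp4b1: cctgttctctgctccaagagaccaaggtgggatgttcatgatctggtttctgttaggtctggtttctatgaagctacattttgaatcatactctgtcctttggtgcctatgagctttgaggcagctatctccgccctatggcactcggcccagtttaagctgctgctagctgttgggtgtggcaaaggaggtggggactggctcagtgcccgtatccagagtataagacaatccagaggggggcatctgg
Cyp4f18: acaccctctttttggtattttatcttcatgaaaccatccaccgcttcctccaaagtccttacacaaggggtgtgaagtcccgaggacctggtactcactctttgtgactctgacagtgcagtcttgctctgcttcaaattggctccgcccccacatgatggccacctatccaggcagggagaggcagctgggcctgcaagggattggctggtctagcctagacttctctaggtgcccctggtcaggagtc
Cyp2e1: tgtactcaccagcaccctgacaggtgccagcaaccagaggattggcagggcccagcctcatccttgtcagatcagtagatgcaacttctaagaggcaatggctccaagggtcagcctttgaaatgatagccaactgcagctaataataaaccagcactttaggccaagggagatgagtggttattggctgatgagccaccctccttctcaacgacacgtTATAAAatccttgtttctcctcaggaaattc

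The Cyp2f2 promoter held CAAGTG on the plus strand beginning 191 bases before the start, and that of Cyp2e1 held TATAAA beginning 31 bases before it. The Cyp4b1 and Cyp4f18 windows held none of the 6 motifs. Of the 12 member promoters, 4 held GCGTG, 2 TTGCNNAA, 0 the NF-kB motif, 2 CAAGTG, 1 TGTTTNC and 1 TATAAA. Over all 32851 RefSeq promoters of the same length, 28.2% held GCGTG, 9.56% TTGCNNAA, 4.11% the NF-kB motif, 11.6% CAAGTG, 17.8% TGTTTNC and 12.4% TATAAA. The GCGTG matches lay in Cyp2b10, Cyp4f16, Cyp4v3 and Cyp2j9. A match describes letters only and is not evidence of binding.

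The question of each particle alone was asked against the same 3 saline arrays, which the NDEP, ADEP and CDEP comparisons share. In NDEP against saline, 3 of the 14 expressed members changed, Cyp2e1 and Cyp4b1 lower and Cyp7b1 higher, when 2.7% of all genes were called (2.25% higher and 0.452% lower). The dim members Cyp4f18, higher, and Cyp2j9, lower, were called as well. The median over the 14 expressed members was -0.02, against 0.00 over all genes.

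Cyp2e1 read 7.15, 6.96 and 7.74 in the saline arrays and 5.76, 6.28 and 6.08 in the NDEP arrays. All NDEP values were below all saline values, a difference of -1.25 ± 0.29 or 2.38-fold (adjusted p = 0.0149, limma). Cyp4b1 read 12.09, 12.02 and 11.97 in saline against 11.55, 11.57 and 11.59 in NDEP. The groups were well apart and each was tight, with a difference of -0.45 ± 0.09 (adjusted p = 0.00382, limma). Cyp7b1 read 6.35, 6.68 and 6.4 in saline against 7.17, 6.89 and 7.24 in NDEP, without overlap, a rise of 0.62 ± 0.17 (adjusted p = 0.0442, limma).

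Cyp4f18 read 5.07, 5.14 and 4.99 in saline against 5.98, 5.34 and 6.07 in NDEP, where replicate 2 stood below the other 2 arrays but above all saline arrays. Its difference was 0.73 ± 0.16 (adjusted p = 0.0116, limma). Cyp2j9, of the subfamily that oxidises arachidonic acid, read 5.21, 5.28 and 4.94 in saline against 4.78, 4.72 and 4.60 in NDEP, a difference of -0.45 ± 0.10 (adjusted p = 0.0151, limma). Among expressed members that did not pass, the differences of Cyp2d22 (-0.58 ± 0.16, adjusted p = 0.0563, limma) and Cyp27a1 (-0.41 ± 0.12, adjusted p = 0.0736) were the 2 largest. Neither gene overlapped between the groups. The Cyp4b1 call held with any 1 array left out, Cyp7b1 was lost without replicate 1 or 3 of either group, Cyp4f18 without NDEP replicate 1 or 3, and Cyp2j9 without saline replicate 1 or 2 or NDEP replicate 3. With only the 6 arrays of the 2 groups in the fit, Cyp4b1 (adjusted p = 0.061), Cyp4f18 (adjusted p = 0.0738) and Cyp2j9 (adjusted p = 0.146) did not pass. Cyp7b1 did not pass with quantile normalization (adjusted p = 0.0636), Cyp7b1 and Cyp4f18 with the fat and heart covariates (adjusted p = 0.146 and 0.145), and Cyp7b1 and Cyp2e1 with the RNA quality covariates (adjusted p = 0.135 and 0.0926).

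Cyp2e1 is also a gene of fat cells, and the fat marker list moved beside it. In NDEP against saline, 2 of the 6 measured fat genes fell (Cidec by 0.53 and Pck1 by 0.56, limma) and 0 rose, when 0.452% of all genes fell. Adipoq, the fat hormone adiponectin, stood at -1.73 (adjusted p = 0.0874, limma). The mean over the fat list was 5.47 to 6.02 on saline arrays and 4.89 to 5.01 on NDEP arrays. Of its 6 genes 2, Pck1 among them, were below the 25th percentile (4.45 to 4.64) on all 24 arrays. Cidec was near that level, with 4.56, 4.57 and 4.65 in saline and 3.86, 4.22 and 4.10 in NDEP, so both fat genes called were dim. The ADEP array with the high Cyp2e1 value of 7.44 also had the highest fat score of the ADEP group, 5.64. With the fat and heart scores as covariates, Cyp2e1 stood at -0.44 in NDEP (adjusted p = 0.383) and at -0.42 in CDEP (adjusted p = 0.286) against saline. The fat scores of the saline arrays lay above those of all NDEP and CDEP arrays, so this fit cannot separate fat from the particles. The part of fat in the Cyp2e1 differences was not tested. Without saline replicate 3, which held the highest Cyp2e1 value and fat score, the NDEP difference was -1.02 (adjusted p = 0.0905, limma), and without NDEP replicate 1 or 3 the call was also lost.

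**Figure D2:**
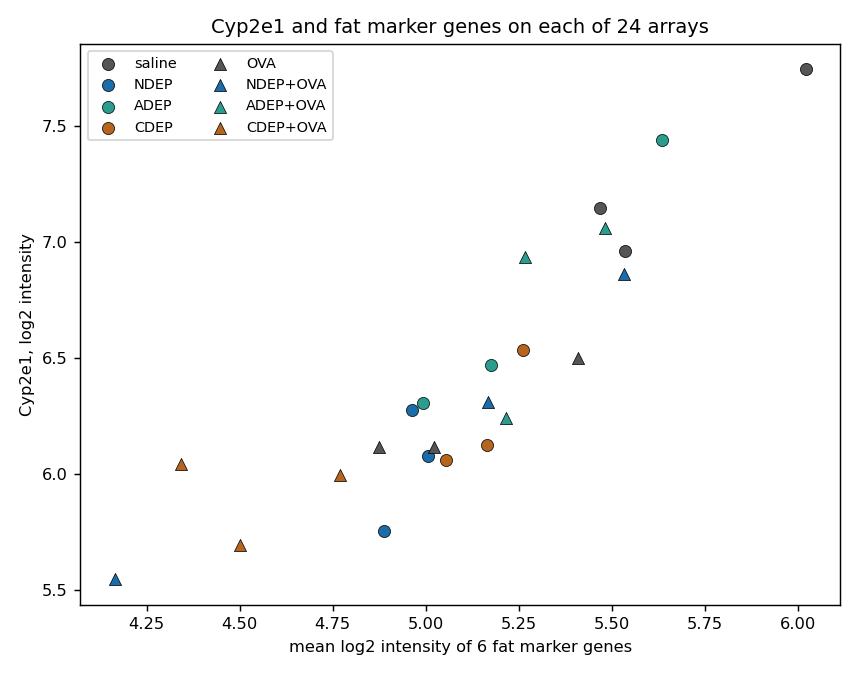
Log2 intensity of Cyp2e1 (y axis) against the mean log2 intensity of 6 fat marker genes (x axis), 1 point for each of the 24 arrays, coloured by particle and shaped by ovalbumin. The 2 arrays highest in Cyp2e1, saline replicate 3 (7.74) and ADEP replicate 1 (7.44), have fat marker means of 6.02 and 5.64, and the 3 CDEP+OVA arrays are low in both.

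In ADEP against saline, 3 of the 14 expressed members changed, all lower, when 1.65% of all genes were called (1.16% higher and 0.492% lower): Cyp2d22, Cyp27a1 and Cyp4b1. Cyp2d22 read 8.18, 7.18 and 7.38 in saline against 6.78, 7.10 and 6.78 in ADEP, a difference of -0.69 ± 0.16 (adjusted p = 0.028, limma). Saline replicate 1 stood far above the other saline arrays. Without it the difference was -0.39 (adjusted p = 0.158, limma). Saline replicate 1 also had the highest Gapdh 3′ to 5′ difference of all arrays, 0.68, a reading of RNA quality. With the Gapdh and Actb differences as covariates Cyp2d22 was at -0.63 (adjusted p = 0.0239).

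Cyp27a1 read 7.63, 7.49 and 7.51 in saline against 6.99, 7.18 and 6.89 in ADEP, with no overlap, a difference of -0.52 ± 0.12 (adjusted p = 0.028, limma). Cyp4b1 read 11.48, 11.66 and 11.49 in ADEP, all below the saline values given above, a difference of -0.48 ± 0.09 (adjusted p = 0.00694, limma). Among expressed members, the largest differences that did not pass were Cyp2e1 (-0.54 ± 0.29, adjusted p = 0.367) and Cyp7b1 (0.41 ± 0.17, adjusted p = 0.225, limma), whose intervals were -1.13 to 0.04 and 0.07 to 0.76. The 44 dim members gave 0 calls, with 3 at an unadjusted p below 0.05, beside 1935 of all 12393 genes. Of these dim members, Cyp4f18 stood at 0.46 ± 0.16 (adjusted p = 0.152, limma) and Cyp2j9 at -0.37 ± 0.10 (adjusted p = 0.0599), both without overlap between the groups. Cyp2d22 was also lost without ADEP replicate 1 or 3, Cyp27a1 without replicate 1 or 3 of either group, and Cyp4b1 without saline replicate 1 or ADEP replicate 3. None of the 3 passed with only the 6 arrays of the 2 groups in the fit, where Cyp4b1 and Cyp27a1 had an adjusted p of 0.052 and Cyp2d22 one of 0.155. With the fat and heart covariates Cyp27a1 (adjusted p = 0.124) and Cyp2d22 (adjusted p = 0.109) did not pass.

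In CDEP against saline, 3 of the 14 expressed members changed, all lower, when 4.04% of all genes were called (2.28% higher and 1.76% lower): Cyp2e1, Cyp2d22 and Cyp4b1. Cyp2e1 read 6.06, 6.13 and 6.54 in CDEP, all below the saline arrays, a difference of -1.04 ± 0.29 (adjusted p = 0.0394, limma). Cyp2d22 read 6.90, 6.95 and 6.86 in CDEP, also below all saline arrays, with -0.68 ± 0.16 (adjusted p = 0.0211, limma) and -0.38 (adjusted p = 0.109) without saline replicate 1. Cyp4b1 read 11.66, 11.78 and 11.73, with -0.30 ± 0.09 (adjusted p = 0.048, limma), again below every saline array. The median over the 14 was -0.25, against -0.02 over all genes.

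Among expressed members, the largest CDEP differences that did not pass were those of Cyp7b1 (0.45 ± 0.17, adjusted p = 0.124) and Cyp27a1 (-0.35 ± 0.12, adjusted p = 0.0977, limma), and neither gene overlapped between the groups. The 44 dim members gave 0 calls, with 4 at an unadjusted p below 0.05, beside 2444 of all 12393 genes. Cyp4f18 stood at 0.52 ± 0.16 (adjusted p = 0.0641, limma) and Cyp2j9 at -0.35 ± 0.10 (adjusted p = 0.0516), again without overlap. The fat score was 5.05 to 5.26 on CDEP arrays. The Actb 3′ to 5′ difference was 0.64 to 0.69 on CDEP arrays and 0.81 to 1.20 on saline arrays, and with both RNA quality differences as covariates the 3 genes did not pass (adjusted p = 0.37, 0.291 and 0.28 for Cyp2e1, Cyp2d22 and Cyp4b1, limma). The Actb ranges of the 2 groups did not overlap, so this fit cannot separate RNA quality from CDEP. Each call was lost without 1 or more single arrays: Cyp4b1 without any of the 6, Cyp2e1 without any but saline replicate 2, and Cyp2d22 without saline replicate 1 or any CDEP replicate. With only the 6 arrays in the fit Cyp2d22 (adjusted p = 0.101) and Cyp4b1 (adjusted p = 0.14) did not pass, nor did Cyp4b1 with the fat and heart covariates (adjusted p = 0.133). Cyp2e1 had an adjusted p of 0.0515 with the mean over probe sets, and Cyp2e1 and Cyp4b1 had adjusted p of 0.0801 and 0.06 with the trended robust variance.

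**Figure D3:**
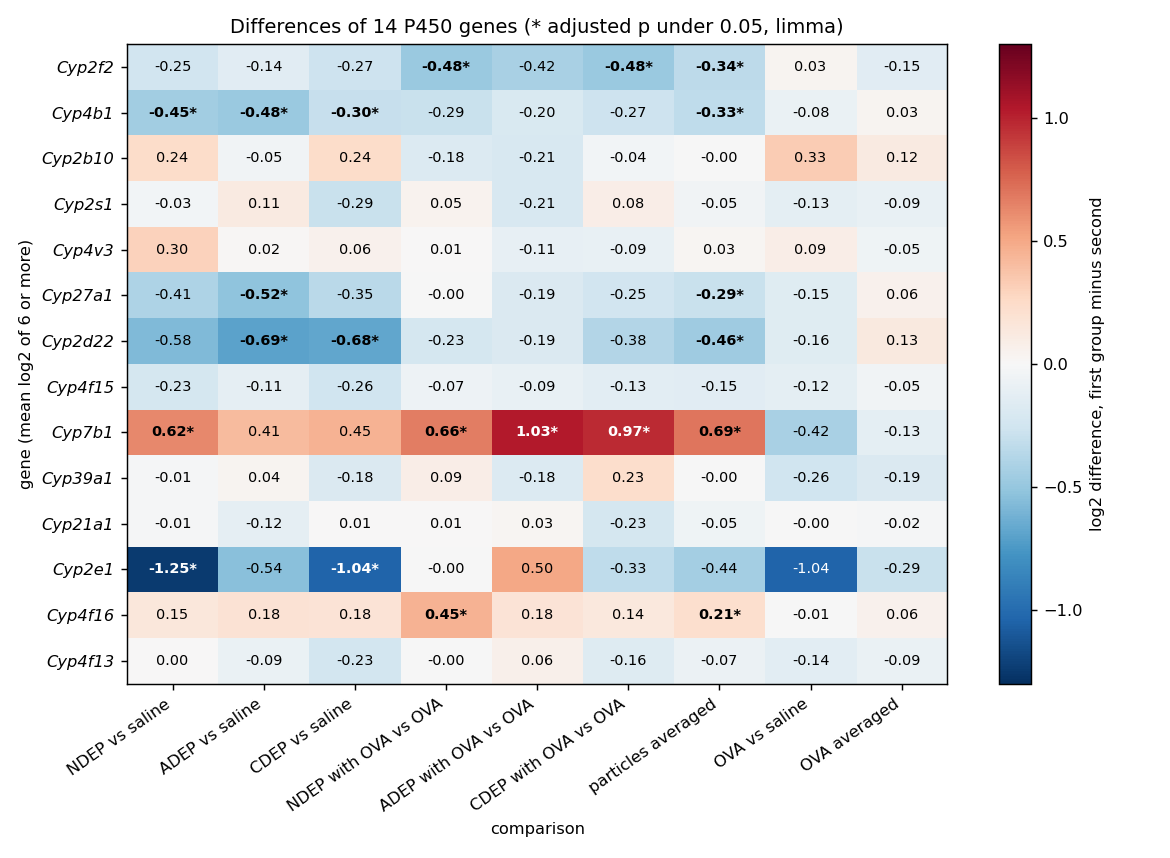
Differences in log2 intensity, first group minus second, for the 14 expressed P450 genes (rows) in 9 comparisons (columns), with colour and printed value for each and a star where limma's adjusted p was under 0.05. Cyp7b1 is above 0 in the 6 comparisons with particles and in their average, Cyp4b1 and Cyp2d22 are below 0 in the same 7, and the 2 ovalbumin columns hold no star.

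OVA against saline gave 0 called members and 0 called genes in all (0%), with 3 of the 14 expressed members and 818 of the 12393 genes at an unadjusted p below 0.05 in limma. Cyp2e1 read 6.12, 6.50 and 6.11 in the OVA arrays, all below the saline arrays, with -1.04 ± 0.29, the same size as after CDEP, but an adjusted p of 0.485 in this comparison. The fat score was 4.87 to 5.41 on OVA arrays, below the saline range. Cyp7b1 read 6.44, 5.71 and 6.0 in OVA, a difference of -0.42 ± 0.17 from saline (adjusted p = 0.684) with overlap. Of the dim members, Cyp2j9 stood at -0.42 ± 0.10 (adjusted p = 0.352, limma), without overlap. Averaged over the 4 backgrounds, ovalbumin gave 0 called members when 2.47% of all genes were called (0.912% higher and 1.56% lower). An unadjusted p below 0.05 was held by 2 of the 14 and by 1914 of all 12393 genes. The largest averaged differences among expressed members were Cyp2e1 (-0.29 ± 0.14, adjusted p = 0.332, limma) and Cyp39a1 (-0.19 ± 0.08, adjusted p = 0.242).

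In the presence of ovalbumin, each particle was compared with the same 3 OVA arrays. In NDEP+OVA against OVA, 3 of the 14 expressed members changed when 2.07% of all genes were called (1.74% higher and 0.331% lower): Cyp7b1 and Cyp4f16 rose and Cyp2f2 fell. Cyp7b1 read 6.82, 6.63 and 6.69 in NDEP+OVA, above the 3 OVA values given above, a rise of 0.66 ± 0.17 (adjusted p = 0.0364, limma). Cyp4f16 read 6.21, 5.90 and 6.02 in OVA against 6.66, 6.26 and 6.57 in NDEP+OVA, a rise of 0.45 ± 0.10 (adjusted p = 0.0173, limma), which with the mean over its probe sets was 0.24 (adjusted p = 0.325). Cyp2f2 read 13.38, 13.33 and 13.42 in OVA against 12.97, 13.01 and 12.72 in NDEP+OVA, a fall by 0.48 ± 0.11, or 28.2% (adjusted p = 0.0134, limma). None of the 3 genes overlapped between the groups.

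Among expressed members that did not pass, Cyp4b1 (-0.29 ± 0.09, adjusted p = 0.0823, limma) and Cyp2d22 (-0.23 ± 0.16, adjusted p = 0.671) had the largest differences. Cyp2e1 stood at -0.00 ± 0.29, with an interval of -0.59 to 0.59, and its 3 NDEP+OVA values of 5.55, 6.86 and 6.31 were spread more widely than the OVA values. The 44 dim members gave 0 calls, with 2 at an unadjusted p below 0.05, beside 1442 of all 12393 genes. Of the dim members, Cyp4f18 stood at 0.53 ± 0.16 (adjusted p = 0.0957, limma) without overlap and Cyp2a12 at -0.34 ± 0.14 (adjusted p = 0.315). All 3 calls were lost without OVA replicate 2 or 3 or NDEP+OVA replicate 3, those of Cyp7b1 and Cyp4f16 also without NDEP+OVA replicate 1, and none of the 3 passed with only the 6 arrays of the 2 groups in the fit (adjusted p from 0.0664 to 0.151). Cyp2f2 and Cyp4f16 did not pass with the fat and heart covariates (adjusted p = 0.179 and 0.0603, limma), nor Cyp4f16 and Cyp7b1 with the RNA quality covariates (adjusted p = 0.066 and 0.0581). The Actb 3′ to 5′ difference was 0.73 to 0.91 on OVA arrays and 0.95 to 1.08 on NDEP+OVA arrays. The fit with RNA quality therefore cannot separate it from NDEP here.

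In ADEP+OVA against OVA, Cyp7b1 was the 1 of 14 expressed members that changed, when 0.686% of all genes were called (0.629% higher and 0.0565% lower). It read 7.07, 6.97 and 7.20 against 6.44, 5.71 and 6.0 in OVA, a rise of 1.03 ± 0.17 or 2.04-fold (adjusted p = 0.00276, limma), with every ADEP+OVA array above every OVA array. Cyp2f2 read 12.81, 12.89 and 13.18, below all OVA arrays, but its difference of -0.42 ± 0.11 did not pass (adjusted p = 0.0675, limma). Cyp2e1 stood at 0.50 ± 0.29 (adjusted p = 0.525). The 44 dim members gave 0 calls, with 4 at an unadjusted p below 0.05, beside 1414 of all 12393 genes. Cyp4f18 stood at 0.45 ± 0.16 (adjusted p = 0.236, limma) without overlap.

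In CDEP+OVA against OVA, 2 of the 14 expressed members changed when 4.79% of all genes were called (3.62% higher and 1.17% lower). Cyp7b1 read 6.79, 7.30 and 6.97 in CDEP+OVA, all above the OVA arrays, a rise of 0.97 ± 0.17 or 1.96-fold (adjusted p = 0.000859, limma). Cyp2f2 read 12.89, 12.74 and 13.06, all below the OVA arrays, a fall by 0.48 ± 0.11 (adjusted p = 0.00779, limma). The Cyp7b1 calls of ADEP+OVA and CDEP+OVA held with any 1 array left out and with the fat and heart or the RNA quality covariates. Cyp2f2 lost its call in CDEP+OVA without CDEP+OVA replicate 2, and with the fat and heart covariates it stood at -0.35 (adjusted p = 0.201). Cyp2d22 (-0.38 ± 0.16, adjusted p = 0.21, limma) and Cyp2e1 (-0.33 ± 0.29, adjusted p = 0.575) had the largest differences among expressed members that did not pass. The 44 dim members gave 0 calls, with 3 at an unadjusted p below 0.05, beside 2206 of all 12393 genes. Cyp4f18 stood at 0.43 ± 0.16 (adjusted p = 0.149, limma) without overlap.

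Club cell markers were read beside Cyp2f2. In CDEP+OVA against OVA, 1 of the 7 club genes rose (Reg3g, an antimicrobial lectin, by 1.78) and 1 fell (the secretoglobin Scgb3a2, by 0.72). Scgb1a1, the secretoglobin that defines club cells, stood at -0.20 (adjusted p = 0.273, limma). Whether its probe set lay near the top of the intensity scale, where a difference would be understated, was not tested. The mean over the club list was 10.57 to 11.15 on OVA arrays and 10.84 to 11.16 on CDEP+OVA arrays, so the ranges overlapped. Reg3g weighed on these means, with 9.91, 7.87 and 9.40 in OVA against 10.81, 10.70 and 11.02 in CDEP+OVA, and Scgb3a1 was also higher on average. Scgb3a2 read 12.58, 12.55 and 12.63 against 11.88, 11.47 and 12.23, and Aldh3a1, which was not called, 6.03, 5.84 and 5.82 against 5.36, 5.35 and 5.55. The list median difference was -0.20, against -0.01 over all genes. Over the particle average, 2 club genes rose and 1 fell, beside 7.01% and 3.44% of all genes, with Scgb1a1 at -0.09 ± 0.06. The part of club cell number in the Cyp2f2 differences was not tested.

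The effect of ovalbumin within each particle was compared next. OVA within NDEP gave 0 called members, when 0.274% of all genes were called, with 2 of the 14 at an unadjusted p below 0.05. Cyp7b1 (-0.39 ± 0.17, adjusted p = 0.462, limma) and Cyp4f16 (0.29 ± 0.10, adjusted p = 0.323) had the largest differences among the 14. OVA within ADEP gave 0 called members against 0.0646% of all genes, with 5 of the 14 at an unadjusted p below 0.05, led by Cyp39a1 (-0.48 ± 0.16, adjusted p = 0.335, limma, no overlap) and Cyp2s1 (-0.45 ± 0.20, adjusted p = 0.462). OVA within CDEP gave 0 against 3.58% of all genes (1.92% higher and 1.66% lower), with 0 of the 14 at an unadjusted p below 0.05, and Cyp2e1 (-0.33 ± 0.29) and Cyp2s1 (0.25 ± 0.20) were largest among the 14. Of the 44 dim members, 2, 2 and 7 had an unadjusted p below 0.05 in these 3 comparisons and 0 were called. Over all 12393 genes, 1195, 1233 and 2652 had such a p.

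Whether a particle acted differently with ovalbumin was tested by the interaction, the difference between its effects with and without ovalbumin. All 3 interactions gave 0 called members, when 0.0242%, 0.0242% and 0.371% of all genes were called for NDEP, ADEP and CDEP. In limma, 2, 4 and 1 of the 14 had an unadjusted p below 0.05, as had 764, 1292 and 1575 of all 12393 genes. Among the 14, Cyp2e1 had the largest value each time: 1.24 for NDEP (interval 0.41 to 2.08, adjusted p = 0.602), 1.05 for ADEP (adjusted p = 0.372) and 0.71 for CDEP (adjusted p = 0.468). Cyp7b1 followed for ADEP (0.62, interval 0.13 to 1.11, adjusted p = 0.372) and CDEP (0.52, adjusted p = 0.368), and Cyp2b10 for NDEP (-0.42, adjusted p = 0.845). Of the dim members, Cyp2j9 had interactions of 0.64 ± 0.14 for NDEP (adjusted p = 0.173, limma), 0.55 ± 0.14 for ADEP (adjusted p = 0.226) and 0.38 ± 0.14 for CDEP (adjusted p = 0.273). The particle differences of Cyp7b1 were larger against OVA than against saline, but are therefore not shown to differ between the 2 settings. Their references differed as well, with a Cyp7b1 mean of 6.05 in OVA and 6.475 in saline.

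Direct comparisons of the particles asked whether the chemically distinct samples differed. Without ovalbumin, NDEP against ADEP gave 0 called members (0.00807% of all genes), CDEP against ADEP 0 (0% of all genes) and CDEP against NDEP 0 (0%). An unadjusted p below 0.05 was held by 2, 1 and 1 of the 14, and by 565, 828 and 734 of all 12393 genes. Among the 14, the largest differences were those of Cyp2e1, at -0.70 for NDEP minus ADEP (interval -1.29 to -0.11, adjusted p = 0.999, limma) and -0.50 for CDEP minus ADEP (interval -1.09 to 0.09, adjusted p = 0.765), each followed by a second gene, Cyp2b10 (0.29) and Cyp2s1 (-0.40). For CDEP minus NDEP they were Cyp2s1 (-0.26) and Cyp4v3 (-0.24). Without ovalbumin the genes that passed against saline thus differ between particles (Cyp2e1 after NDEP and CDEP, Cyp27a1 after ADEP, for example), but no P450 gene was shown to differ between 2 particles.

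With ovalbumin, NDEP against ADEP gave 0 called members (0.0161% of all genes), CDEP against ADEP 0 (1.43% of all genes) and CDEP against NDEP 0 (0.00807% of all genes), with 2 of the 14 at an unadjusted p below 0.05 in each. Of the 44 dim members 3, 13 and 2 had such a p, and of all 12393 genes 1338, 2629 and 908. Among these dim members was Cyp2a12, at -0.41 ± 0.14 for NDEP minus ADEP (adjusted p = 0.297, limma). Cyp2e1 was lower in CDEP+OVA (6.04, 5.70 and 6.0) than in ADEP+OVA (6.24, 7.06 and 6.94) on every array, a difference of -0.84 with an interval of -1.42 to -0.25 that did not pass (adjusted p = 0.113, limma). The fat score was 4.34 to 4.77 in CDEP+OVA and 5.22 to 5.48 in ADEP+OVA. Cyp39a1 was second among the 14 there (0.41, adjusted p = 0.147). For NDEP minus ADEP the largest among the 14 were Cyp2e1 (-0.51) and Cyp7b1 (-0.37), and for CDEP minus NDEP they were Cyp2e1 (-0.33) and Cyp4f16 (-0.32).

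The 44 dim members include the liver-type Cyp2c, Cyp3a and Cyp4a genes, the adrenal and gonadal Cyp11a1, Cyp11b2 and Cyp17a1, and the bile acid genes Cyp7a1 and Cyp8b1. Their means ran from 2.94 to 5.83. 26 of them lay below the 25th percentile of the array (4.45 to 4.64) on all 24 arrays, 9 on some and 9 on none, so at least the first 26 are not shown to lie above background. The range of group means was 0.10 to 0.73, with a median of 0.26. Apart from Cyp4f18 and Cyp2j9, none of the 44 passed in any of the 21 comparisons.

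Other enzymes of foreign compound oxidation were read from lists beside the P450 genes. Of 6 measured flavin monooxygenases and epoxide hydrolases, 5 fell and 0 rose in the particle average, when 3.44% of all genes fell and 7.01% rose. The list median was -0.32, against -0.00 over all genes. Fmo1, which oxidises nitrogen- and sulfur-containing compounds, fell by 0.38 ± 0.09 (adjusted p = 0.00487, limma), and Fmo2, the form typical of lung, fell by 0.38 ± 0.10 (adjusted p = 0.00999). Fmo5 fell by 0.32 ± 0.07, and Ephx1, the microsomal hydrolase that opens epoxides made by P450 enzymes, fell by 0.32 ± 0.06 (adjusted p = 0.000813, limma). Single comparisons gave fewer calls, 0 of 6 for NDEP, 2 for ADEP and 1 for CDEP against saline, when 2.7%, 1.65% and 4.04% of all genes were called. With ovalbumin against OVA they gave 1, 0 and 1 for NDEP, ADEP and CDEP, beside 2.07%, 0.686% and 4.79% of all genes.

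Of the 8 carboxylesterases measured 3 fell and 0 rose, of 9 conjugating enzymes 1 fell, and of 12 alcohol and aldehyde dehydrogenases 1 fell, all in the particle average. Of all genes 10.4% were called there (7.01% higher and 3.44% lower), so 1 call among 9 or 12 genes is not read as a result about those lists. Among 7 electron donors, Cyb5r1 rose (0.21) and Pgrmc1, a heme-binding partner of P450 enzymes, fell by 0.24. In the heme list 3 of 12 rose and 0 fell, led by the heme oxygenase Hmox1 (0.67 ± 0.09, adjusted p = 3.48e-05, limma), with the biliverdin reductases Blvra (0.22) and Blvrb (0.25), whereas Alas1, the first enzyme of heme synthesis outside red cells, stood at 0.09 ± 0.09. Of 18 receptors and factors that regulate P450 genes 0 passed in the particle average, with Ahr at -0.03 ± 0.12. In NDEP against saline 2 of the 18 rose, Cebpa (0.51) and the clock factor Dbp (1.55), beside 2.25% of all genes. In CDEP+OVA against OVA 1 of the 18 fell, beside 1.17% of all genes: the fatty acid receptor Ppara, by 0.48 ± 0.11 (adjusted p = 0.0106, limma). Of the 3 prostaglandin, thromboxane and cholesterol P450 genes with other symbols, 0 passed.

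Markers of other tissue parts moved with particles as well, in an average that called 7.01% of all genes higher and 3.44% lower. There 8 of 9 heart genes, 3 of 9 endothelial genes, 3 of 8 fibroblast genes and 2 of 6 fat genes fell and 0 of each rose. In the same average 5 of 5 neutrophil and 3 of 6 macrophage genes rose and 0 fell. The part of these tissues and cells in the lower P450 levels was not tested. Heart and fat genes fell with particles themselves, so the fit with their scores as covariates cannot separate them from the particles.

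**Figure D4:**
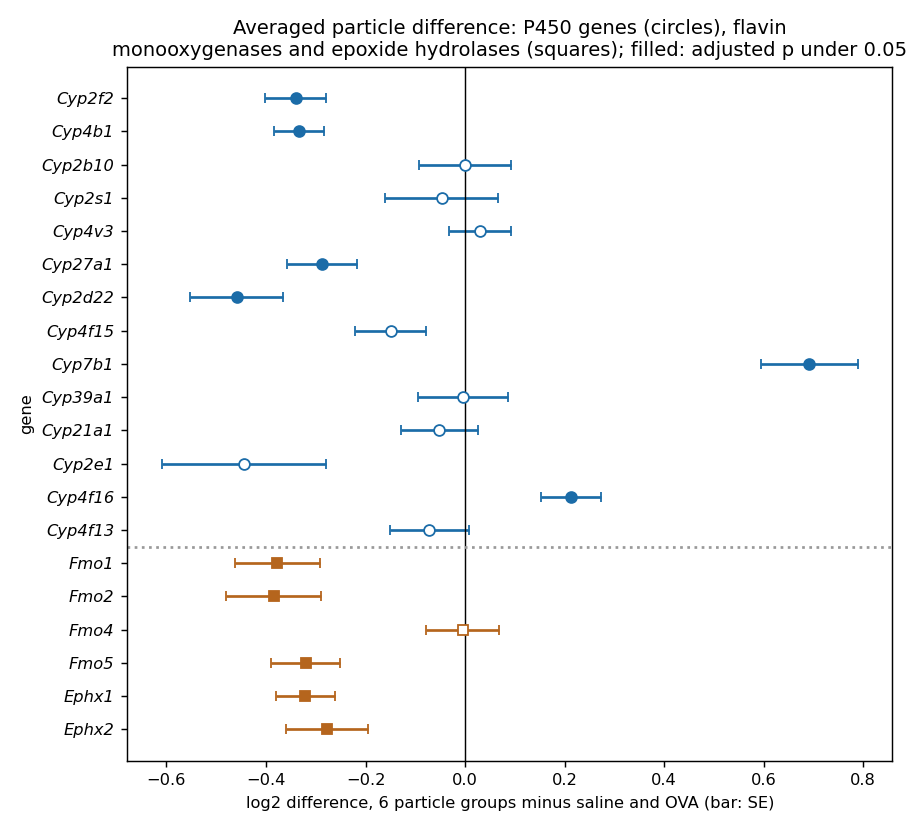
Difference in log2 intensity between the mean of the 6 particle groups and the mean of the saline and OVA groups (x axis), with bars of 1 SE, for the 14 expressed P450 genes (circles) and the 6 measured flavin monooxygenases and epoxide hydrolases (squares), filled where limma's adjusted p was under 0.05. Cyp7b1 at 0.69 lies farthest to the right, Cyp2d22 at -0.46 farthest to the left, and 5 of the 6 squares are filled and left of 0.

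Cyp7b1 acts on oxysterols, among them the product of cholesterol hydroxylase Ch25h, and together with Hsd3b7 these enzymes set the level of a ligand that guides immune cells through the receptor Gpr183. This list was added after Cyp7b1 was seen to rise, so its values are a description. Ch25h read 6.23, 6.53 and 6.75 in saline and 6.53, 5.82 and 6.64 in OVA. It read 7.81, 8.16 and 8.06 in NDEP, 7.15, 7.38 and 7.47 in ADEP and 7.75, 7.66 and 7.51 in CDEP. With ovalbumin it read 7.71, 7.99 and 8.66 in NDEP+OVA, 7.83, 7.69 and 7.82 in ADEP+OVA and 8.27, 8.63 and 7.71 in CDEP+OVA. Every particle array was above every array without particles, and the averaged difference was 1.43 ± 0.13 (adjusted p = 1.2e-07, limma), beside 0.69 for Cyp7b1. Hsd3b7, which modifies the product of Cyp7b1, stood at 0.07 ± 0.06.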

How the data were processed

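Mouse lung RNA was labelled from 2 ug total RNA for 24 1-colour Affymetrix arrays, per the labels' protocols. For each probe set the authors deposited an intensity, normalized with RMA per the submitters' processing notes; its version is not given in the sources used here. They run from 5.98 to 18196 and so are linear, whereas the design assumed log2, and log2 was taken first. RMA draws small values together, so differences of dim genes may be understated. Of 22690 probe sets, 64 controls, 691 with several symbols and 1555 with none were left out. limma 3.58.1 (R 4.3.3) fitted 8 group means to 24 arrays (16 residual and 8.16 prior degrees of freedom) and was tested on simulated data. Plots used matplotlib 3.10.9. Arrays were checked for copies (highest correlation 0.996). Named are all expressed members, called dim members, those within 0.25 of the level of 6, per comparison the 2 largest uncalled differences of expressed members, and at most 4 genes of smallest p per list. Scgb1a1, Adipoq, Alas1, Ahr, Alox5ap, Ryr2, Myl7 and the dim genes named without values fall outside that rule and were chosen after their values were seen. Lists of cell markers and partner enzymes are given by counts. In the particle average 0 of 8 liver, 5 smooth muscle and 4 B cell genes changed. There 3 of 7 alveolar type 2, 1 of 6 alveolar type 1 and 1 of 6 ciliated genes rose, beside 7.01% of all genes. The members and lists were chosen with earlier results of these data known. Alternatives covered probe set choice, filtering, normalization, variance and array weights, covariates, a replicate block and leaving out each array.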

Additional observations from a re-analysis of the deposited data

How the results depend on the processing

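Of 24 called pairs of a member and a comparison, 0 reversed under any alternative. Calls lost were 0 with a filter keeping 10387 genes, 0 with array weights, 1 with quantile normalization (Cyp7b1 in NDEP), 2 with a trended robust variance (Cyp2e1 and Cyp4b1 in CDEP), 3 with the mean over probe sets, 11 of 17 with only the compared groups in the fit, 12 with the fat and heart covariates and 7 with the RNA quality covariates; the last pair of fits was added after seeing the data. The cause was not tested. Counts of expressed members moved as follows. Array weights gave 6 for NDEP, 6 for CDEP and 1 for OVA against saline, 2 for ADEP+OVA and 4 for CDEP+OVA against OVA, and 1 each for OVA averaged and OVA within ADEP. The trended robust variance gave 1 for CDEP. The compared groups alone gave 0 for ADEP, 1 for CDEP and 0 for NDEP+OVA. A level of 7 gave 1 for NDEP, 1 for NDEP+OVA, 0 for ADEP+OVA and 1 for CDEP+OVA, and all members together gave 5 for NDEP. The fat and heart covariates gave 1 for NDEP, ADEP, CDEP, NDEP+OVA and CDEP+OVA. The RNA quality covariates gave 1 for NDEP, 0 for CDEP, 1 for NDEP+OVA and 2 for ADEP+OVA.

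With 1 array left out, 9 of the 24 pairs always kept their call and 52 of 270 such fits lost one. The counts ran from 1 to 4 for NDEP, 0 to 3 for ADEP, 0 to 2 for CDEP, 0 to 4 for NDEP+OVA, 1 to 2 for ADEP+OVA, 1 to 3 for CDEP+OVA, 5 to 7 for the particle average and 0 to 1 for OVA averaged. Arrays of the same replicate number did not deviate together (median correlation 0.03, from -0.32 to 0.35), and with the replicate number as a block the counts stayed at 3, 3 and 3 for NDEP, ADEP and CDEP, 3, 1 and 2 with ovalbumin, and 6 for the particle average, with 0 calls lost. Probe sets near background limit what can be read from the dim members.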

Other observations

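P450 probe sets that the member rule leaves out, because they carry several symbols or a symbol of another form, gave 0 calls in the comparisons with saline or OVA and in both averages (limma over 22626 probe sets). The probe set shared by Cyp2a5 and Cyp2a4 had a mean of 8.08 and stood at -0.33 ± 0.16 in the particle average (adjusted p = 0.253, limma). The brightest Cyp51 probe set, of cholesterol synthesis, had a mean of 6.62 and stood at 0.25 ± 0.13 (adjusted p = 0.281). The probe set shared by Cyp4f37 and Cyp4f16 had a mean of 6.70 and stood at 0.15 ± 0.10 (adjusted p = 0.418), so of the probe sets that name Cyp4f16 the 1 used in the report was the only one past the test. Cyp4a12a, a fatty acid hydroxylase, was dim (4.40) and stood at -0.22 ± 0.08 (adjusted p = 0.0955).

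CDEP+OVA was the group of lowest mean for 25 of the 44 dim members (56.8%). The same group was the lowest for 2167 of all 4853 dim genes (44.7%), while no other group was the lowest for more than 9.68% of them. The 25th percentile of the CDEP+OVA arrays was 4.45 to 4.55, and that of the saline arrays 4.52 to 4.64.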
